A study of Rattus norvegicus with 12 samples.

Results

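The genes described here are 33 genes of cholesterol and fatty acid synthesis, sterol transport and their shared regulators, taken by gene symbol from the 17419 genes in the deposited tables. All 33 were in the tables and passed the filter on low counts, which left 12535 genes for testing. They were measured by RNA sequencing in primary cultures of heart ventricles from newborn (P0) wild-type Sprague-Dawley rats, enriched in cardiomyocytes by removing fibroblasts and grown in medium with serum. RNA was collected 48 h after transfection with small interfering RNAs (siRNAs), short RNAs that lead to breakdown of a matching messenger RNA. The double knockdown received 10 nM siRNA to Btg1 and 10 nM siRNA to Btg2. The Btg1 knockdown received 10 nM siRNA to Btg1 with 10 nM scramble siRNA, and the Btg2 knockdown received 10 nM siRNA to Btg2 with 10 nM scramble siRNA. The scramble control received 20 nM scramble siRNA, so the cells of every group, the control included, were transfected. Each of the 4 groups had 3 libraries. The labels do not say that these came from separate animals or cultures, so each p-value covers library-to-library spread alone, some or all of which could be technical.

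Cells build cholesterol from acetyl-CoA through mevalonate, isoprenoid units, squalene and lanosterol, and a further series of enzymes converts lanosterol to cholesterol. The transcription factors SREBP-2 (gene Srebf2) and SREBP-1 (gene Srebf1) switch these genes on. They lie as precursors in the endoplasmic reticulum, where the INSIG proteins hold them back together with their escort SCAP while sterol is plentiful. SREBP-2 acts mainly on sterol genes and SREBP-1, in its SREBP-1c form, mainly on fatty acid genes. BTG1 and BTG2, the proteins depleted here, are related factors known for restraining cell proliferation and for recruiting the enzymes that shorten messenger RNA tails.

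Total counts were 24434925 to 46206581 a library, and the 33 genes held 293 to 28393 counts each per library. Btg1 had 50.9, 54.4 and 49.8 CPM in the double knockdown, 69.9, 61.8 and 66.8 CPM in the Btg1 knockdown, 296, 305 and 297 CPM in the Btg2 knockdown and 285, 281 and 284 CPM in scramble. Btg2 had 69.6, 67.6 and 68.8 CPM in the double knockdown, 169.8, 179 and 177 CPM in the Btg1 knockdown, 82.8, 85.3 and 87.4 CPM in the Btg2 knockdown and 139.7, 132 and 144 CPM in scramble. Both target genes were lowest where their own siRNA was present, and Btg2 was higher in the Btg1 knockdown than in scramble (0.34 ± 0.041 on the log2 scale). CPM here are counts divided by the library total and scaled between libraries by the trimmed mean of M-values (TMM). All 8 cardiomyocyte markers were detected, the lowest being Ryr2 with at least 48.9 TPM (a unit scaled by gene length as well as by library total) in every library. The summed level of 10 fibroblast markers was 6566 to 7450 TPM in the double knockdown, 6591 to 7508 TPM in the Btg1 knockdown, 8104 to 8310 TPM in the Btg2 knockdown and 8177 to 8377 TPM in scramble. Of these 10 genes, 9 fell in the double knockdown, 9 fell in the Btg1 knockdown, and 5 fell and 1 rose in the Btg2 knockdown. The sum of 10 macrophage and leukocyte markers was 61.7 to 67.1 TPM, 57.2 to 67.8 TPM and 54.9 to 56.8 TPM in the double, Btg1 and Btg2 knockdowns, against 73.8 to 91 TPM in scramble, with 3, 3 and 7 of the 10 genes lower. The sum of 8 endothelial markers was 124.7 to 140.4 TPM, 143.6 to 154.3 TPM and 143.1 to 149.2 TPM in those groups, against 161.6 to 166.1 TPM in scramble, with 6, 1 and 3 genes lower and 1, 1 and 0 higher. The sum of 6 smooth muscle markers was 2772 to 3022 TPM, 3016 to 3755 TPM and 2974 to 3339 TPM in the same groups, against 2570 to 2806 TPM in scramble, with 3, 2 and 1 genes higher and 1, 0 and 0 lower. Cnn1, the calponin of smooth muscle, rose by 1.19, 1.45 and 0.96 on the log2 scale. The sum of the 8 cardiomyocyte markers was 32350 to 33130 TPM, 31250 to 36240 TPM and 32460 to 37250 TPM, against 30430 to 31210 TPM in scramble, with 1, 2 and 3 genes higher and 2, 3 and 0 lower. The sum of 3 epicardial markers was 204.3 to 230.2 TPM in the double knockdown, 134.2 to 145.6 TPM in the Btg1 knockdown, 192.9 to 221.7 TPM in the Btg2 knockdown and 141.3 to 149.3 TPM in scramble, so the sum was higher in both groups with the Btg2 siRNA. Most of it was Krt19, with a mean of 168.9 TPM over all libraries, beside 4.47 TPM for Wt1 and 2.71 TPM for Msln. Of the 3 genes, 1 rose and 1 fell in the double knockdown and likewise in the Btg2 knockdown, and none was called in the Btg1 knockdown. The sum of 6 adipocyte markers was 12.9 to 13.6 TPM, 10.7 to 13.8 TPM and 7.2 to 9.1 TPM in the double, Btg1 and Btg2 knockdowns, against 7.7 to 11.8 TPM in scramble. None of the 3 of them that passed the filter was called against scramble. In the double knockdown 1 of the 3 was called higher than in the Btg1 knockdown, and 2 were called higher than in the Btg2 knockdown. The adipocyte genes Adipoq, Plin1 and Lep were at or below 0.1 TPM in every library. Of 3 tested Schwann and neuronal markers, 2 fell in the double knockdown and 2 in the Btg1 knockdown, and neither of the 2 tested erythroid markers was called against scramble. Beside these marker counts, 19.4%, 18.7% and 16.4% of all tested genes were higher than in scramble in the double, Btg1 and Btg2 knockdowns. The shares of all tested genes that were lower were 19.5%, 17.8% and 13.6%. The part of these marker differences in the results on lipid genes was not tested, and in such bulk samples fewer cells of a type and less RNA per cell cannot be told apart.

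Where the Btg1 siRNA was present, more of the lipid synthesis genes rose than fell, by modest amounts, and the rest were not called. In the double knockdown 15 of the 33 genes rose and 4 fell against scramble (edgeR's quasi-likelihood test, Benjamini-Hochberg adjusted p under 0.05 over all tested genes). These are 45.5% and 12.1% of the list, where 19.4% of all tested genes were called higher and 19.5% lower. In the Btg1 knockdown 16 genes rose and 2 fell, beside 18.7% of all tested genes higher and 17.8% lower. In the Btg2 knockdown the list was split, with 7 genes up and 7 down, beside 16.4% of all tested genes higher and 13.6% lower. The median log2 change over the 33 genes was 0.094 in the double knockdown, 0.13 in the Btg1 knockdown and -0.015 in the Btg2 knockdown, where the medians of all tested genes were within 0.01 of 0. Single changes ran from -0.75 to 0.47 in the double knockdown, from -0.31 to 0.56 in the Btg1 knockdown and from -0.80 to 0.47 in the Btg2 knockdown. These 3 comparisons share the scramble libraries, so their values are set side by side and not counted as separate evidence. Sqle, Msmo1, Nsdhl, Ebp and Scap were not called in any of the 6 comparisons made.

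**Figure D1:**
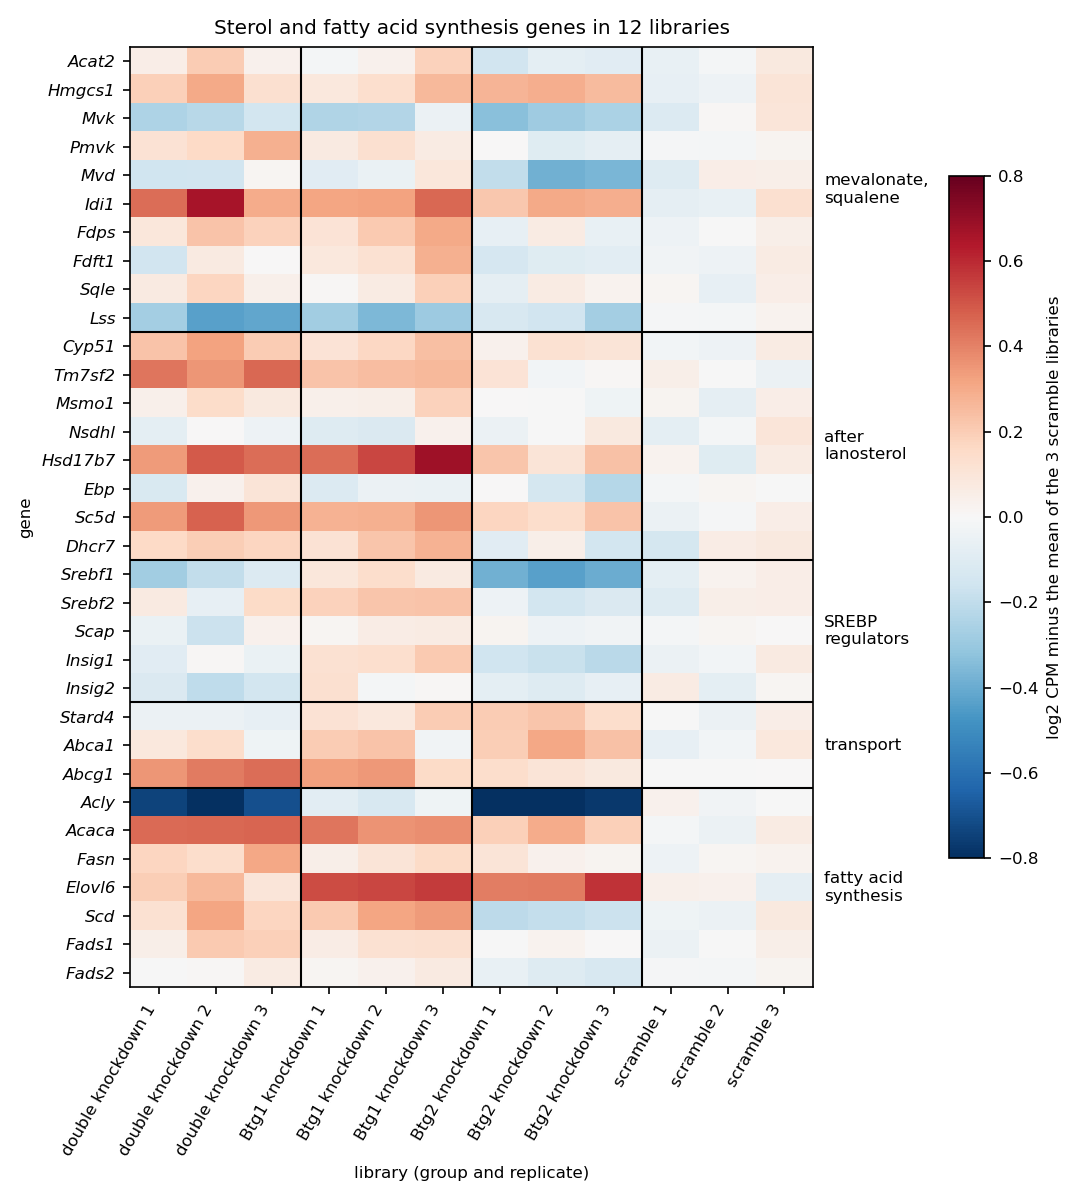
Level of each of the 33 genes (rows, grouped by role) in each of the 12 libraries (columns, grouped by siRNA), as log2 CPM minus the mean of the 3 scramble libraries. Acly and Srebf1 are low in both groups with the Btg2 siRNA, Lss is lowest in both groups with the Btg1 siRNA, and Hsd17b7, Sc5d, Tm7sf2, Abcg1 and Acaca are high in both groups with the Btg1 siRNA.

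On the length-scaled TPM scale, the highest of the genes in scramble was Fdps with a mean of 869.8 TPM. It was followed by Cyp51 with 326 TPM, Insig1 with 284 TPM and Hmgcs1 with 268 TPM. The lowest were Elovl6 with 7.83 TPM and Hsd17b7 with 13.3 TPM. Summed over the 33 genes, the level was 4244 to 4500 TPM in the double knockdown and 4299 to 4494 TPM in the Btg1 knockdown. The sum was 3873 to 3953 TPM in the Btg2 knockdown and 3847 to 4133 TPM in scramble, so both groups with the Btg1 siRNA lay above all 6 libraries without it.

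The 10 genes of the mevalonate and squalene steps moved in both directions. In the double knockdown 4 (40%) rose and 2 (20%) fell, and in the Btg1 knockdown 4 (40%) rose and 2 (20%) fell. In the Btg2 knockdown 2 (20%) rose and 3 (30%) fell. In those groups 19.4%, 18.7% and 16.4% of all tested genes were higher, and 19.5%, 17.8% and 13.6% were lower. Idi1, which interconverts the 5-carbon isoprenoid units, rose most of these in the double and Btg1 knockdowns and had 204, 237 and 184 CPM in the double knockdown, 186, 187 and 206 CPM in the Btg1 knockdown, 174, 185 and 183 CPM in the Btg2 knockdown and 143, 144 and 164 CPM in scramble. No knockdown library overlapped with scramble. The log2 change was 0.47 ± 0.082 (± SE, as for every log2 change here) in the double knockdown, 0.36 ± 0.082 in the Btg1 knockdown and 0.27 ± 0.083 in the Btg2 knockdown, with adjusted p = 0.00055, 0.004 and 0.028 by edgeR. Hmgcs1, the cytosolic HMG-CoA synthase that joins acetyl-CoA to acetoacetyl-CoA, had 507, 547 and 485 CPM in the double knockdown, 470.0, 486 and 531 CPM in the Btg1 knockdown, 536, 542 and 528 CPM in the Btg2 knockdown and 424, 432 and 476 CPM in scramble. The Btg2 knockdown libraries were all high and tight, and only the Btg1 knockdown overlapped with scramble. Its log2 change was 0.21 ± 0.051 in the double knockdown, 0.16 ± 0.051 in the Btg1 knockdown and 0.27 ± 0.051 in the Btg2 knockdown, with adjusted p = 0.0025, 0.018 and 0.00037 by edgeR.

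Lss, the cyclase that closes squalene epoxide into lanosterol and so makes the first sterol of the route, went the other way. It had 58.1, 52.1 and 52.7 CPM in the double knockdown, 57.8, 54.8 and 57.5 CPM in the Btg1 knockdown, 64.3, 63.2 and 58.2 CPM in the Btg2 knockdown and 69.8, 69.4 and 71.6 CPM in scramble. All 9 knockdown libraries were below all 3 scramble libraries, and the 6 with the Btg1 siRNA were the lowest. Lss fell by 22.8% in the double knockdown (log2 change -0.37 ± 0.051, adjusted p = 3.7e-06 by edgeR), by 19.3% in the Btg1 knockdown (-0.31 ± 0.051, adjusted p = 4.4e-05) and by 11.9% in the Btg2 knockdown (-0.18 ± 0.051, adjusted p = 0.0089). Mvk, the kinase that first phosphorylates mevalonate, also fell in all 3 knockdowns and had 41.0, 41.7 and 44.0 CPM in the double knockdown, 41.2, 41.4 and 47.1 CPM in the Btg1 knockdown, 38.7, 40.0 and 40.8 CPM in the Btg2 knockdown and 45.2, 49.1 and 52.1 CPM in scramble. Its log2 change was -0.21 ± 0.06 in the double knockdown, -0.18 ± 0.06 in the Btg1 knockdown and -0.29 ± 0.061 in the Btg2 knockdown, and its Btg1 knockdown libraries overlapped with scramble. Mvd, the decarboxylase that makes isopentenyl diphosphate, fell in the Btg2 knockdown and had 38.5, 38.6 and 43.5 CPM in the double knockdown, 40.4, 41.5 and 45.8 CPM in the Btg1 knockdown, 37.6, 32.9 and 33.4 CPM in the Btg2 knockdown and 40.1, 44.7 and 44.6 CPM in scramble. The Btg2 knockdown libraries were below all others, with a log2 change of -0.31 ± 0.067 (adjusted p = 0.0011 by edgeR) against -0.10 ± 0.066 in the double knockdown and -0.021 ± 0.066 in the Btg1 knockdown, neither of them called.

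Smaller shifts were seen in the other genes of these steps. Fdps, which makes farnesyl diphosphate, rose in the double knockdown (0.17 ± 0.049) and in the Btg1 knockdown (0.21 ± 0.049) and was at -0.017 ± 0.049 in the Btg2 knockdown. Pmvk, the second kinase of the mevalonate route, was called in the double knockdown (0.19 ± 0.05) and in neither single knockdown, with 0.09 ± 0.05 in the Btg1 knockdown and -0.054 ± 0.05 in the Btg2 knockdown. Fdft1, the squalene synthase, rose in the Btg1 knockdown (0.17 ± 0.053) and had -0.023 ± 0.054 in the double knockdown. Sqle, the squalene epoxidase that precedes Lss, was not called, and its 95% interval in the double knockdown was -0.019 to 0.21. Acat2, the cytosolic thiolase at the entry of the route, was not called against scramble either, with a 95% interval of -0.03 to 0.22 in the double knockdown.

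Several of these calls rested on single libraries. In the double knockdown, Mvk was no longer called without scramble replicate 3 (adjusted p = 0.062), nor Fdps without double knockdown replicate 2 or without scramble replicate 1 (0.051 each). In the Btg1 knockdown, Hmgcs1 and Fdft1 were no longer called without Btg1 knockdown replicate 3 (0.13 and 0.14), scramble replicate 1 (0.11 and 0.074) or scramble replicate 2 (0.077 and 0.078), and the log2 change of Fdft1 was 0.10 without Btg1 knockdown replicate 3. Mvk was no longer called there without Btg1 knockdown replicates 1 or 2 (0.12 and 0.1) or scramble replicates 2 or 3 (0.062 and 0.15). In the Btg2 knockdown, Lss was no longer called without Btg2 knockdown replicate 3 (0.079), nor Idi1 without the low-count filter (0.064), Btg2 knockdown replicates 2 or 3 (0.079 and 0.081) or scramble replicates 1 or 2 (0.092 and 0.1). The Idi1 gene overlaps with Wdr37 in the rat annotation, and the strand setting of the counting is not given, so reads shared by the pair cannot be told apart. Wdr37 itself was not called in any of the 6 comparisons.

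The promoter of Lss is shown because the gene fell wherever the Btg1 siRNA was present, against the direction of most of the sterol genes called there. The line gives the 200 bases before the start of the gene at chr20:12118231-12118430, minus strand, from the RefSeq table of build GRCr8, 5′ to 3′ on the strand of the gene. Capitals mark the box bound by the factor NF-Y (CCAAT, or ATTGG on the other strand), which is known to work beside SREBP on many sterol promoters, and the E-box CACGTG.
Lss: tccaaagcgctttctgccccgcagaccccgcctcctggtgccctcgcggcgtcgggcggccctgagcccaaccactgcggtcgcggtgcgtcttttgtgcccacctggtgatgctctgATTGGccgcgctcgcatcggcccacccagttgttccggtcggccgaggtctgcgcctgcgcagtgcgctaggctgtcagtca
A single NF-Y box stands in it, in the ATTGG orientation. Promoter windows of 250 bases were matched for 25 of the 33 genes and searched on both strands. The NF-Y box occurred in 18 of them (72%), against 35.1% of 9810 windows of tested genes and 34.3% of all 27457 windows. The GC box GGGCGG occurred in 21 (84%), against 58.1% and 32.4%, and the E-box in 4 (16%), against 7.92% and 5.78%. The strict form TCACNCCAC of the sterol regulatory element was in none of the 25 windows and in 1.04% of the windows of tested genes. These are letter matches in one window per gene, and no binding was measured.

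Among the 8 enzymes after lanosterol, which trim and rearrange the sterol to cholesterol, every call against scramble was a rise. There were 5 (62.5%) in the double knockdown, 5 (62.5%) in the Btg1 knockdown and 1 (12.5%) in the Btg2 knockdown. Among all tested genes 19.4%, 18.7% and 16.4% were higher in those groups, and 19.5%, 17.8% and 13.6% were lower. The summed level of the 8 enzymes was 893 to 952 TPM in the double knockdown, 857 to 901 TPM in the Btg1 knockdown, 804 to 832 TPM in the Btg2 knockdown and 771 to 827 TPM in scramble. Tm7sf2, a sterol C14-reductase, had 41.4, 39.3 and 42.4 CPM in the double knockdown, 36.0, 36.4 and 36.7 CPM in the Btg1 knockdown, 33.1, 30.2 and 30.9 CPM in the Btg2 knockdown and 31.8, 30.6 and 29.8 CPM in scramble. The double knockdown libraries were the highest, the Btg1 knockdown libraries came next, and the 6 libraries without the Btg1 siRNA overlapped with one another. Tm7sf2 rose by 33.4% in the double knockdown (log2 change 0.42 ± 0.053, adjusted p = 1.4e-06 by edgeR) and 18.3% in the Btg1 knockdown (0.24 ± 0.054 with adjusted p = 0.00098), with 0.034 ± 0.055 in the Btg2 knockdown. Hsd17b7, the 3-ketosteroid reductase of C4 demethylation, was among the least abundant and had 14.6, 16.1 and 15.7 CPM in the double knockdown, 15.7, 16.7 and 18.4 CPM in the Btg1 knockdown, 13.4, 12.3 and 13.6 CPM in the Btg2 knockdown and 11.7, 10.7 and 12.04 CPM in scramble. Every knockdown library was above scramble, and the Btg1 knockdown held the highest value. The log2 change was 0.43 ± 0.083 in the double knockdown and 0.56 ± 0.082 in the Btg1 knockdown, the largest rise of the list there (adjusted p = 0.00023 and 1.1e-05 by edgeR). In the Btg2 knockdown its 0.19 ± 0.084 was not called (adjusted p = 0.089).

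Sc5d, the desaturase that puts in the C5 double bond, rose in all 3 knockdowns and had 93.4, 102 and 94.0 CPM in the double knockdown, 89.6, 89.8 and 94.4 CPM in the Btg1 knockdown, 83.1, 81.4 and 86.6 CPM in the Btg2 knockdown and 71.4, 73.5 and 76.8 CPM in scramble. The groups stood in the order double knockdown, Btg1 knockdown, Btg2 knockdown and scramble, with overlap between the double and the Btg1 knockdown alone. Its log2 change was 0.39 ± 0.046, 0.30 ± 0.046 and 0.18 ± 0.047 in the double, Btg1 and Btg2 knockdowns (adjusted p = 6e-07, 1.7e-05 and 0.0052 by edgeR). Cyp51, the demethylase that acts first on lanosterol, had 582, 622 and 572 CPM in the double knockdown, 538, 558 and 588 CPM in the Btg1 knockdown, 510.1, 542 and 534 CPM in the Btg2 knockdown and 489, 483 and 521 CPM in scramble. It rose in the double knockdown (0.25 ± 0.043) and the Btg1 knockdown (0.17 ± 0.043), and its Btg2 knockdown value of 0.086 ± 0.044 was not called. Dhcr7, the last reductase on one branch of the route, rose by 0.17 ± 0.059 in the double knockdown and 0.20 ± 0.059 in the Btg1 knockdown on the log2 scale. The first call was lost without double knockdown replicate 2 (adjusted p = 0.063) or scramble replicate 1 (0.19, log2 change 0.11), and the second without Btg1 knockdown replicate 3 (0.062) or scramble replicate 1 (0.1). Msmo1, Nsdhl and Ebp, which also work in the removal of the C4 methyl groups or the shift of the C8 double bond, were not called, with double knockdown values of 0.088 ± 0.044, -0.042 ± 0.054 and 0.0077 ± 0.071. In the double and Btg1 knockdowns the rises among the 8 enzymes ran beside lower fibroblast and macrophage sums and higher cardiomyocyte sums than in scramble. The macrophage sum was also lower and the cardiomyocyte sum higher in the Btg2 knockdown, where 1 of the 8 rose. A link between these sums and the rises was not tested.

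The promoters of Tm7sf2, Hsd17b7 and Sc5d are shown as examples. They are 3 of the 10 listed genes that were higher in every library with the Btg1 siRNA than in any library without it. The windows are the 200 bases before the start at chr1:212789542-212789741, minus strand (Tm7sf2), chr13:84722755-84722954, minus strand (Hsd17b7) and chr8:51538278-51538477, minus strand (Sc5d), from RefSeq on GRCr8, with the same capitals.
Tm7sf2: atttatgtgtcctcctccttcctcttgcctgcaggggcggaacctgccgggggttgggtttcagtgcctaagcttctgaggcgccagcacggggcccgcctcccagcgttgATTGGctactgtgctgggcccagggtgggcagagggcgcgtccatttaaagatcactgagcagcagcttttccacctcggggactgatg
Hsd17b7: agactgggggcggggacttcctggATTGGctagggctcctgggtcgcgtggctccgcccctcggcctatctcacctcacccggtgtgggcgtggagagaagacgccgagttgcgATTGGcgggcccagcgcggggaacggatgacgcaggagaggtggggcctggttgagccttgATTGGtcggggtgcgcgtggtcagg
Sc5d: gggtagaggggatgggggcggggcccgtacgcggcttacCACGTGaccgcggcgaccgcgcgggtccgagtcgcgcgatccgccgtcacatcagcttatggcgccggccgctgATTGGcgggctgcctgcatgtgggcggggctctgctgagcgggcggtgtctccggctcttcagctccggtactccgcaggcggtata
The windows of Tm7sf2 and Sc5d hold 1 NF-Y box each and that of Hsd17b7 holds 3, and Sc5d also holds 1 E-box. The window of Lss, which fell in the same libraries, also holds 1 NF-Y box. Fdps, Dhcr7, Scd and Fads1 were among the 10 genes too and have windows that are not shown. That of Fdps holds 2 NF-Y boxes and that of Fads1 holds 1, whereas those of Dhcr7 and Scd hold none.

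**Figure D2:**
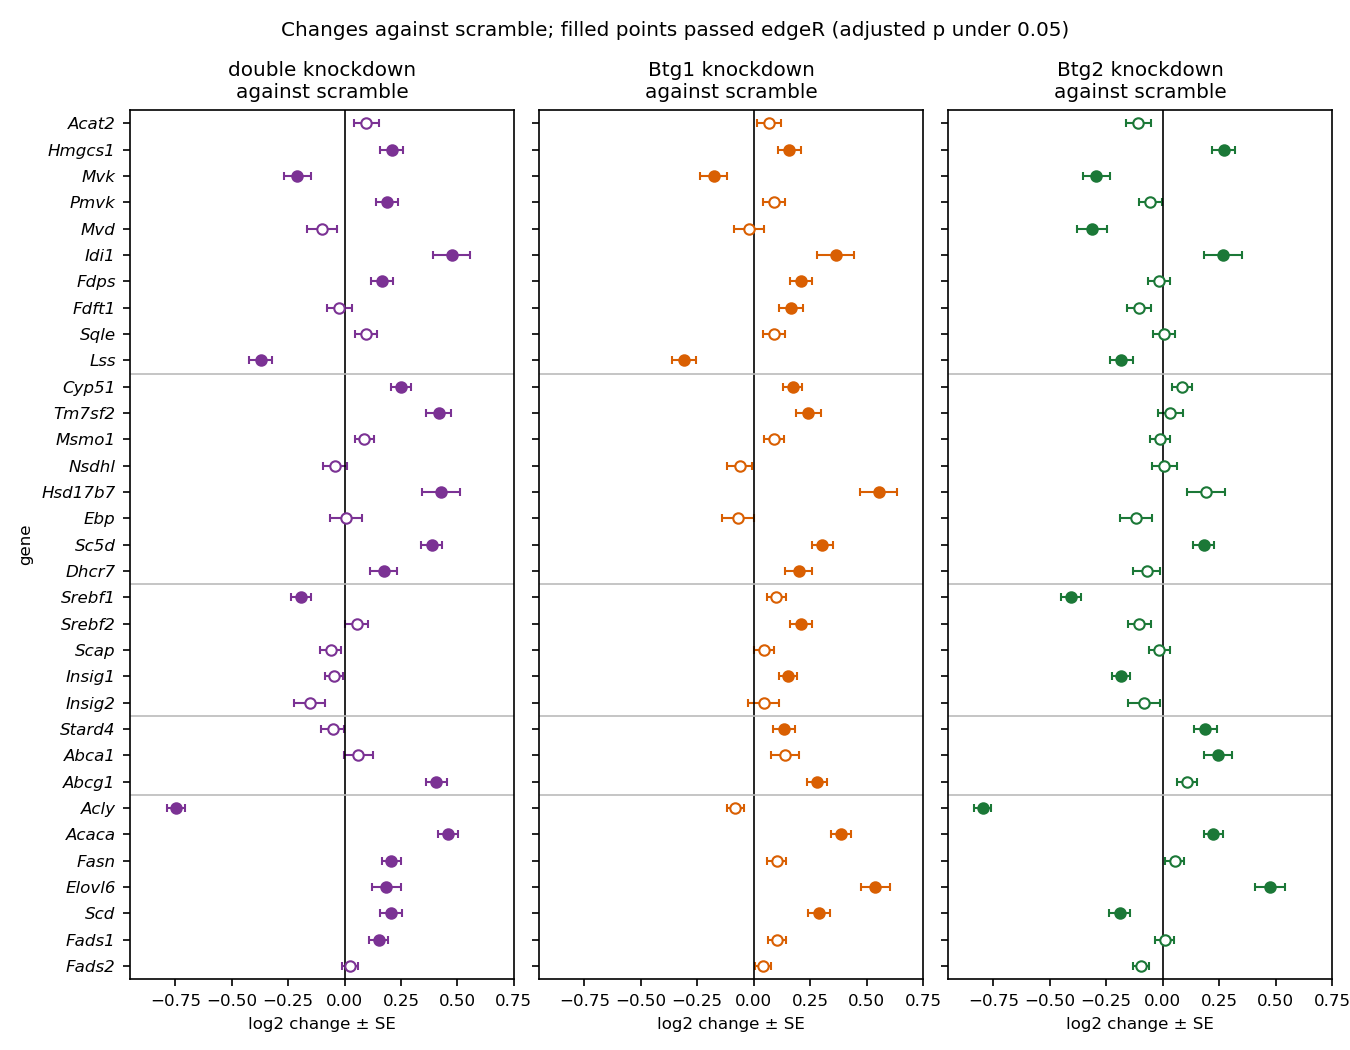
Log2 change ± SE of each of the 33 genes (rows, grouped by role) in the double, Btg1 and Btg2 knockdowns against scramble, filled where edgeR called the change. Most filled points of the double and Btg1 knockdowns lie to the right of 0, and Acly lies far to the left in the double and Btg2 knockdowns.

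The 5 regulators of the pathway were on average lowest in the Btg2 knockdown. None rose and 1 (20%) fell in the double knockdown, 2 (40%) rose in the Btg1 knockdown, and 2 (40%) fell in the Btg2 knockdown. Among all tested genes 19.4%, 18.7% and 16.4% were higher in those groups, and 19.5%, 17.8% and 13.6% were lower. The summed level of the 5 regulators was 483 to 491.5 TPM in the double knockdown, 543 to 556 TPM in the Btg1 knockdown, 435 to 455 TPM in the Btg2 knockdown and 484 to 524 TPM in scramble. Srebf1 had 158, 167 and 176 CPM in the double knockdown, 203, 210.0 and 201 CPM in the Btg1 knockdown, 146, 141 and 145 CPM in the Btg2 knockdown and 181, 194 and 197 CPM in scramble. All 6 libraries with the Btg2 siRNA were below all 6 without it, and the Btg2 knockdown was the lowest group. Srebf1 fell by 12.6% in the double knockdown (log2 change -0.19 ± 0.043, adjusted p = 0.00097 by edgeR) and by 24.6% in the Btg2 knockdown (-0.41 ± 0.043, adjusted p = 2.5e-07). In the Btg1 knockdown its value was 0.10 ± 0.043 (adjusted p = 0.072), which was called only when the 2 groups were fitted alone (0.036). The Srebf1 gene overlaps with Rai1 in the rat annotation, and Rai1 was not called in any of the 6 comparisons. The counts do not separate SREBP-1a from SREBP-1c.

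Srebf2 had 204, 186 and 217 CPM in the double knockdown, 221, 227 and 229 CPM in the Btg1 knockdown, 189, 176 and 179.6 CPM in the Btg2 knockdown and 182, 201 and 202 CPM in scramble. The Btg1 knockdown libraries were the highest and did not overlap with any other group. The log2 change was 0.21 ± 0.05 in the Btg1 knockdown (adjusted p = 0.002 by edgeR), 0.053 ± 0.05 in the double knockdown and -0.10 ± 0.05 in the Btg2 knockdown. The microRNA gene Mir33 lies within Srebf2, and its reads cannot be told apart here from those of the host. Insig1, which retains SREBP and is itself a target of it, had 326, 350.1 and 334 CPM in the double knockdown, 378, 381 and 401 CPM in the Btg1 knockdown, 311, 307 and 299 CPM in the Btg2 knockdown and 336, 342 and 365 CPM in scramble. It rose in the Btg1 knockdown (0.15 ± 0.04, adjusted p = 0.0042 by edgeR) and fell in the Btg2 knockdown (-0.18 ± 0.04, adjusted p = 0.0013), and the double knockdown overlapped with scramble (-0.046 ± 0.04). Insig2, the second INSIG, had 16.7, 15.7 and 16.4 CPM in the double knockdown, 19.8, 17.9 and 18.2 CPM in the Btg1 knockdown, 17.1, 16.9 and 17.3 CPM in the Btg2 knockdown and 18.9, 17.1 and 18.3 CPM in scramble. It was not called against scramble, with -0.16 ± 0.07 in the double knockdown, 0.044 ± 0.069 in the Btg1 knockdown and -0.082 ± 0.07 in the Btg2 knockdown. Scap had 100.2, 92.0 and 106 CPM in the double knockdown, 105, 108 and 109 CPM in the Btg1 knockdown, 106, 101 and 102 CPM in the Btg2 knockdown and 102, 105 and 104 CPM in scramble. In the double knockdown 2 libraries were below all others and replicate 3 was not, and the 95% interval of its log2 change there was -0.17 to 0.043. Without double knockdown replicate 3 the change of Scap passed the threshold (adjusted p = 0.047).

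Among the 7 fatty acid genes, Acly showed the largest change of all 33 in the double and Btg2 knockdowns. It encodes ATP citrate lyase, which cuts cytosolic citrate into the acetyl-CoA from which both fatty acids and sterols are made. Acly had 153, 147 and 157 CPM in the double knockdown, 241, 234 and 249 CPM in the Btg1 knockdown, 147, 144 and 149 CPM in the Btg2 knockdown and 261, 250.1 and 255 CPM in scramble. The 6 libraries with the Btg2 siRNA formed one low cluster and the 6 without it one high cluster. Acly fell by 40.4% in the double knockdown (log2 change -0.75 ± 0.038, adjusted p = 8e-13 by edgeR) and by 42.5% in the Btg2 knockdown (-0.80 ± 0.038, adjusted p = 4.2e-12). The Btg1 knockdown lay just below scramble and was not called (-0.082 ± 0.038, adjusted p = 0.095). These calls held in every alternative setting and without any single library.

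Acly and Srebf1 were the genes of the list that were lower in all 6 libraries with the Btg2 siRNA, and their promoters are shown for that reason. The windows are the 200 bases before the listed start at chr10:85963632-85963831, minus strand (Acly) and chr10:45529165-45529364, minus strand (Srebf1), from RefSeq on GRCr8, with the same capitals. The listed start of Acly lies inside the annotated span of the gene, and Srebf1 has a second listed start that was not used.
Acly: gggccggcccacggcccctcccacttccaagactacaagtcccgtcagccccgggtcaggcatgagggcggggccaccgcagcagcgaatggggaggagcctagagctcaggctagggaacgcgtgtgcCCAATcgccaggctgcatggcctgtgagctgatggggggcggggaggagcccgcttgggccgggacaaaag
Srebf1: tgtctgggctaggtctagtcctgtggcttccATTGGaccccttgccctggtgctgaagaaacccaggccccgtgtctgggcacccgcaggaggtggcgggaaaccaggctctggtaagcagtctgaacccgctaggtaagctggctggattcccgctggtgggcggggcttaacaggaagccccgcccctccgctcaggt
Each window holds 1 NF-Y box, in opposite orientations.

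The enzymes downstream of Acly were mostly higher in the double knockdown, where 5 of the 7 fatty acid genes rose and Acly alone fell. These were 71.4% and 14.3% of the 7 genes. In the Btg1 knockdown 3 (42.9%) rose and none fell, and in the Btg2 knockdown 2 (28.6%) rose and 2 (28.6%) fell. Among all tested genes 19.4%, 18.7% and 16.4% were higher in the double, Btg1 and Btg2 knockdowns, and 19.5%, 17.8% and 13.6% were lower. Acaca, the acetyl-CoA carboxylase that commits carbon to fatty acids, had 107, 107 and 108 CPM in the double knockdown, 105, 100 and 101 CPM in the Btg1 knockdown, 89.1, 95.8 and 89.2 CPM in the Btg2 knockdown and 77.2, 75.5 and 81.6 CPM in scramble. The groups stood in the order double knockdown, Btg1 knockdown, Btg2 knockdown and scramble without any overlap. The log2 change was 0.46 ± 0.043 in the double knockdown, 0.39 ± 0.043 in the Btg1 knockdown and 0.22 ± 0.044 in the Btg2 knockdown (adjusted p = 1.4e-08, 2.4e-07 and 0.00041 by edgeR). Scd, the stearoyl-CoA desaturase that makes oleate, had 249, 285 and 258 CPM in the double knockdown, 265, 284 and 289.9 CPM in the Btg1 knockdown, 198, 200.3 and 203 CPM in the Btg2 knockdown and 224, 222 and 242 CPM in scramble. It rose in the double knockdown (0.21 ± 0.048) and the Btg1 knockdown (0.29 ± 0.048) and fell in the Btg2 knockdown (-0.19 ± 0.048, adjusted p = 0.004 by edgeR), with no overlap with scramble in any of the 3. Its close paralog Scd2 could have taken or given reads under counting options that are not given, and Scd2 was at 0.17 ± 0.044, 0.23 ± 0.044 and -0.01 ± 0.044 in the double, Btg1 and Btg2 knockdowns.

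Elovl6, which lengthens palmitate to stearate, was low in abundance and had 22.7, 23.8 and 21.2 CPM in the double knockdown, 28.5, 28.8 and 29.2 CPM in the Btg1 knockdown, 26.4, 26.5 and 29.6 CPM in the Btg2 knockdown and 20.4, 20.3 and 18.8 CPM in scramble. The single knockdowns were both well above scramble, and the double knockdown lay between. The log2 change was 0.54 ± 0.065 in the Btg1 knockdown and 0.47 ± 0.066 in the Btg2 knockdown (adjusted p = 6.8e-07 and 9.3e-06 by edgeR). In the double knockdown it was 0.19 ± 0.066 (adjusted p = 0.029). That last call was lost without double knockdown replicates 1 or 2 (adjusted p = 0.067 and 0.12), without scramble replicate 3 (0.12), and by limma on the TPM values (0.061 and 0.059 with pseudocounts of 1 and 0.1). Fasn, the fatty acid synthase, rose in the double knockdown (0.21 ± 0.043), with 0.10 ± 0.043 in the Btg1 knockdown and 0.053 ± 0.043 in the Btg2 knockdown. Fads1, the delta-5 desaturase of polyunsaturated fatty acids, rose in the double knockdown (0.15 ± 0.042) and had 0.10 ± 0.042 in the Btg1 knockdown. Its partner Fads2, the delta-6 desaturase, was not called against scramble, with 0.025 ± 0.037 in the double knockdown and -0.10 ± 0.037 in the Btg2 knockdown (adjusted p = 0.053). Fasn and Fads1 were called in the Btg1 knockdown when the 2 groups were fitted alone (0.03 and 0.025) or without Btg1 knockdown replicate 1 (0.049 and 0.046), and Fads1 also without scramble replicate 3 (0.041) or with a replicate block (0.037). Fads2 was called in the Btg2 knockdown by DESeq2 (0.044), by limma on TPM (0.04 and 0.041), without TMM scaling (0.011), with a filter of 1 CPM in 6 libraries (0.046), when the 2 groups were fitted alone (0.029), and without Btg2 knockdown replicate 1 (0.047).

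**Figure D3:**
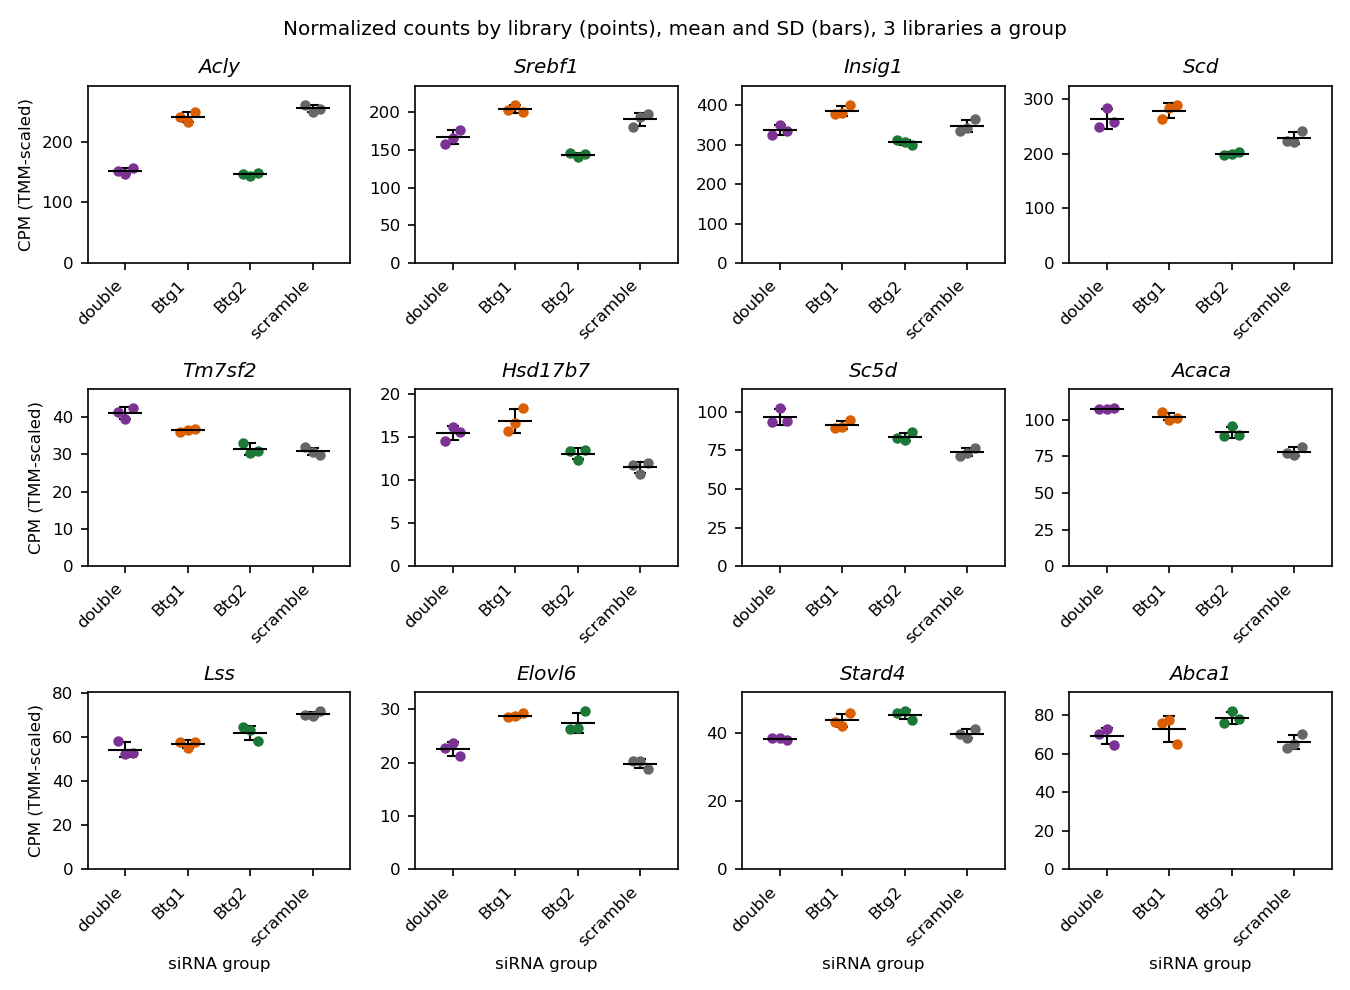
CPM of 12 of the genes in each library (points) with the mean and SD of each group of 3 libraries (bars), from the double knockdown at the left to scramble at the right, each axis starting at 0. Acly splits the libraries by the Btg2 siRNA, Tm7sf2 and Hsd17b7 by the Btg1 siRNA, and Elovl6 and Stard4 are highest in the single knockdowns.

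The 3 sterol transport genes behaved differently from one another. Abcg1, an exporter of sterol to lipoproteins that is known as a target of liver X receptors, had 159, 167 and 170.2 CPM in the double knockdown, 157, 159 and 139 CPM in the Btg1 knockdown, 138, 134 and 132 CPM in the Btg2 knockdown and 124, 125 and 125 CPM in scramble. Each knockdown group lay above scramble, whose libraries were within 1 CPM of each other. Abcg1 rose by 32.6% in the double knockdown (log2 change 0.41 ± 0.045, adjusted p = 1.8e-07 by edgeR) and 21.5% in the Btg1 knockdown (0.28 ± 0.045 with adjusted p = 3.1e-05), and its 0.11 ± 0.045 in the Btg2 knockdown was called only when the 2 groups were fitted alone (0.022). Abca1, which hands cholesterol to apolipoprotein A-I and is also known as a liver X receptor target, had 70.1, 72.8 and 64.5 CPM in the double knockdown, 76.2, 77.4 and 64.8 CPM in the Btg1 knockdown, 75.7, 81.9 and 78.0 CPM in the Btg2 knockdown and 63.1, 65.3 and 70.3 CPM in scramble. It rose in the Btg2 knockdown (0.24 ± 0.063, adjusted p = 0.0051 by edgeR). The Btg1 knockdown value of 0.14 ± 0.062 was not called, but its replicate 3 was the lowest, and without Btg1 knockdown replicate 3 or scramble replicate 3 it was called (0.0072 and 0.049). Stard4, a carrier of sterol between membranes, had 38.6, 38.7 and 38.1 CPM in the double knockdown, 43.3, 42.2 and 45.9 CPM in the Btg1 knockdown, 45.96, 46.5 and 44.0 CPM in the Btg2 knockdown and 39.8, 38.6 and 41.4 CPM in scramble. It rose in the Btg2 knockdown (0.19 ± 0.051, adjusted p = 0.007 by edgeR), was at 0.13 ± 0.05 in the Btg1 knockdown (adjusted p = 0.04), and overlapped with scramble in the double knockdown (-0.053 ± 0.051). The Btg1 knockdown call of Stard4 was lost in 9 alternatives, among them the replicate block (0.053), limma (0.056) and leaving out Btg1 knockdown replicates 1 or 3 (0.066 and 0.18) or scramble replicates 1 or 2 (0.099 and 0.16).

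The design also measured each siRNA a second time, on top of the other, in libraries that the first measurement did not use. The targets fell further in the second measurement. The log2 change of Btg1 was -2.10 with its siRNA alone and -2.53 on top of the Btg2 siRNA. That of Btg2 was -0.70 with its siRNA alone and -1.35 on top of the Btg1 siRNA. Adding the Btg1 siRNA to the Btg2 siRNA, that is the double knockdown against the Btg2 knockdown, raised 18 of the 33 genes and lowered 4, beside 15.2% of all tested genes higher and 17% lower. The median log2 change was 0.14. Of the 16 genes that rose with the Btg1 siRNA alone, 11 (68.8%) also rose here, which is 61.1% of the 18. Over all tested genes, 979 were higher in both, 41.8% of one list and 51.3% of the other. The 11 genes were Fdps, Cyp51, Tm7sf2, Hsd17b7, Sc5d, Dhcr7, Srebf2, Insig1, Abcg1, Acaca and Scd. Scd had 0.40 ± 0.048 and Tm7sf2 0.38 ± 0.054 in this second measurement, the largest rises of the list in it, and Lss fell again (-0.19 ± 0.052). Mvd (0.21 ± 0.067) and Srebf1 (0.21 ± 0.043), which were low in the Btg2 knockdown, were among those that rose. Stard4 (-0.24 ± 0.051) and Elovl6 (-0.29 ± 0.065) fell here although the Btg1 siRNA alone had raised them. Over all tested genes, 229 of the 2342 raised by the Btg1 siRNA alone fell here.

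Some calls of the second Btg1 measurement depended on single libraries. Hsd17b7 (0.23 ± 0.082) was no longer called without double knockdown replicates 2 or 3 (adjusted p = 0.1 and 0.07) or Btg2 knockdown replicates 1 or 2 (0.055 and 0.11). Srebf2 (0.16 ± 0.05) was no longer called without double knockdown replicates 1 or 3 (0.052 and 0.11) or Btg2 knockdown replicates 2 or 3 (0.087 and 0.067), and its value without double knockdown replicate 3 was 0.10. Insig1 (0.14 ± 0.04) was lost without double knockdown replicate 2 (0.062) or Btg2 knockdown replicate 3 (0.055), and Mvd without double knockdown replicate 3 (0.1) or Btg2 knockdown replicates 2 or 3 (0.082 and 0.086). Taking the 6 libraries with the Btg1 siRNA against the 6 without it, 10 genes were higher in every one, beside 6.51% of all tested genes. They were Pmvk, Fdps, Tm7sf2, Hsd17b7, Sc5d, Dhcr7, Abcg1, Acaca, Scd and Fads1. Lss alone was lower in every one, beside 7.71% of all tested genes.

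The Btg2 siRNA on top of the Btg1 siRNA, that is the double knockdown against the Btg1 knockdown, raised 2 genes and lowered 8, beside 10.3% of all tested genes higher and 11.9% lower. The median log2 change was -0.027. Of the 7 genes that fell with the Btg2 siRNA alone, 3 (42.9%) also fell here, which is 37.5% of the 8, and over all tested genes those shares were 31.5% and 36%. The 3 were Acly (-0.67 ± 0.038, adjusted p = 4.3e-11 by edgeR), Srebf1 (-0.29 ± 0.043, adjusted p = 2.8e-05) and Insig1 (-0.20 ± 0.04, adjusted p = 0.00083). None of the 7 genes that rose with the Btg2 siRNA alone rose here, and Elovl6 (-0.35 ± 0.064) and Stard4 (-0.19 ± 0.05) fell instead. Over all tested genes, 2051 rose with the Btg2 siRNA alone. Of these 27.5% rose again here and 250 fell. Acly and Srebf1 were lower in all 6 libraries with the Btg2 siRNA than in the 6 without it, beside 3.47% of all tested genes, and none was higher in all 6, beside 2.99%.

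The remaining calls of this comparison were less stable than those 3 and Elovl6. Tm7sf2 (0.17 ± 0.052) was no longer called without double knockdown replicates 1 or 3 (adjusted p = 0.055 and 0.059) or Btg1 knockdown replicate 1 (0.068), and Stard4 was lost without Btg1 knockdown replicate 3 (0.063). Abcg1 (0.13 ± 0.045) and Insig2 (-0.20 ± 0.069) were each lost in 8 alternatives, and Abcg1 was at 0.068 without Btg1 knockdown replicate 3 (0.3). Fdft1 (-0.19 ± 0.053) was lost without double knockdown replicate 1 (0.079) or Btg1 knockdown replicate 3 (0.11). Srebf2 (-0.16 ± 0.05) was lost by limma (0.1) and without double knockdown replicate 2 (0.17, log2 change -0.099) or Btg1 knockdown replicates 2 or 3 (0.071 and 0.087).

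**Figure D4:**
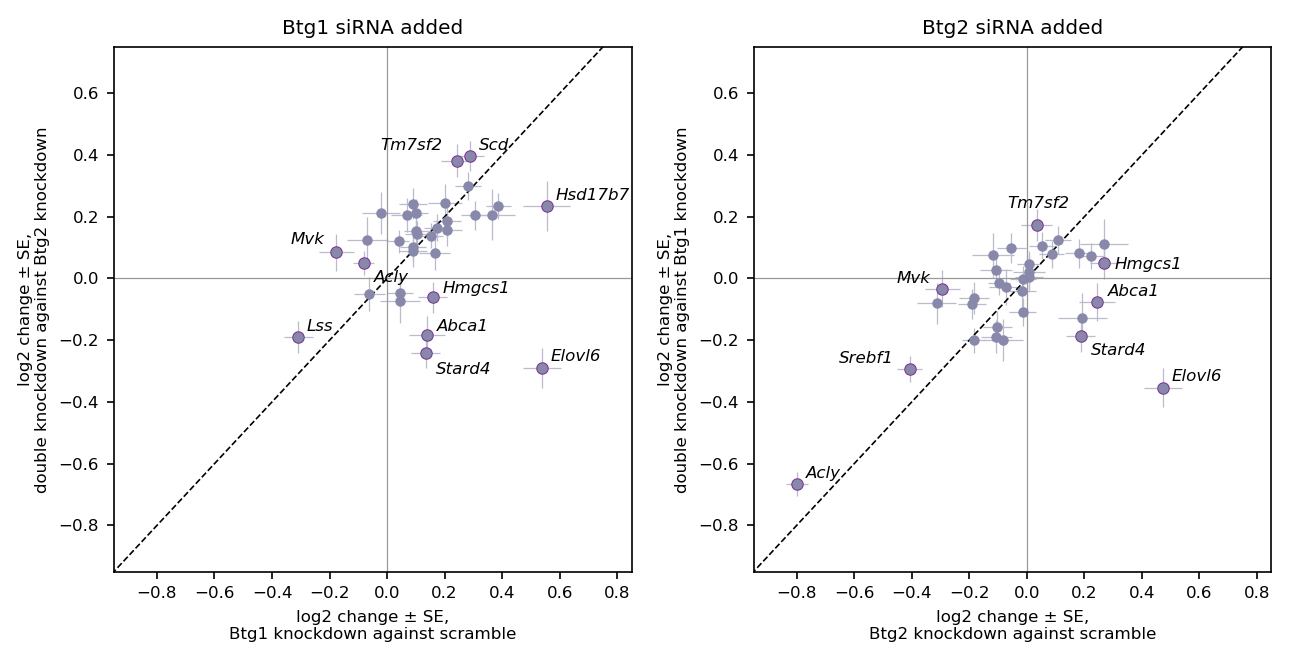
Log2 change ± SE of each of the 33 genes (points) when the Btg1 siRNA (left) or the Btg2 siRNA (right) was added without the other siRNA (x axis) and with it (y axis), with a dashed line where both are equal. Acly and Srebf1 lie low on both axes for the Btg2 siRNA, most points lie at upper right for the Btg1 siRNA, and Elovl6 lies at lower right in both.

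For 28 of the 33 genes no departure of the double knockdown from the sum of the single knockdowns was called on the log2 scale. The departure, tested as the interaction of the siRNAs, was called higher for 1 gene (3.03%) and lower for 4 (12.1%). Beside these, 4.99% of all tested genes were higher and 10.1% lower. The targets themselves departed, Btg1 by -0.44 and Btg2 by -0.65 (adjusted p = 2.9e-05 and 1.4e-07 by edgeR). The part of this deeper depletion in the departures of the listed genes was not tested. Elovl6 fell short of the sum by the most, with a departure of -0.83 ± 0.092 (adjusted p = 1.2e-06 by edgeR), and Stard4 followed with -0.37 ± 0.071 (adjusted p = 0.00082). Both held in every alternative setting. In both genes each single knockdown was above scramble in every library, while the double knockdown was below both single knockdowns. Abca1 had -0.32 ± 0.088 (adjusted p = 0.017), which was lost by limma (0.099 and 0.098) and without Btg1 knockdown replicates 1 or 2 (0.053 and 0.05) or scramble replicate 1 (0.06). Hmgcs1 had -0.22 ± 0.072 (adjusted p = 0.044) and Mvk 0.26 ± 0.085 (adjusted p = 0.042). The call of Hmgcs1 ended in 12 alternatives and that of Mvk in 8, without libraries of every group in each gene (adjusted p up to 0.13 and 0.12). For Acly the departure was 0.13 ± 0.054 (95% interval 0.0081 to 0.26, adjusted p = 0.1) and was called only without TMM scaling (0.039).

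Other genes of the pathway moved in both directions. Of 36 other tested genes of sterol synthesis, uptake, esterification and SREBP processing, 9 (25%) rose and 11 (30.6%) fell in the double knockdown. In the Btg1 knockdown 9 (25%) rose and 9 (25%) fell, and in the Btg2 knockdown 4 (11.1%) rose and 9 (25%) fell. Among all tested genes 19.4%, 18.7% and 16.4% were higher in the double, Btg1 and Btg2 knockdowns, and 19.5%, 17.8% and 13.6% were lower. Of the 36 genes, Vldlr, a lipoprotein receptor, fell in the double knockdown (-0.40 ± 0.037, adjusted p = 9.2e-09 by edgeR), as did Npc2, which carries cholesterol out of lysosomes (-0.29 ± 0.037). Stard5, another sterol carrier, rose in the Btg1 knockdown (0.67 ± 0.067). Scarb1, a receptor for high-density lipoprotein, fell in the Btg2 knockdown (-0.29 ± 0.055). Of 34 other tested genes of fatty acid and glycerolipid synthesis, 9 (26.5%) rose and 7 (20.6%) fell in the double knockdown. In the Btg1 knockdown 9 (26.5%) rose and 7 (20.6%) fell, and in the Btg2 knockdown 6 (17.6%) rose and 4 (11.8%) fell, beside the same shares of all tested genes. Agpat3, an acyltransferase of phospholipid synthesis, rose in the double knockdown (0.54 ± 0.04, adjusted p = 4.1e-10 by edgeR), and the elongase Elovl5 rose in the Btg1 knockdown (0.45 ± 0.044). Slc25a1, the mitochondrial carrier that exports the citrate on which ATP citrate lyase acts, fell in the Btg2 knockdown (-0.37 ± 0.05, adjusted p = 6.9e-06 by edgeR). Mid1ip1, known as an activator of acetyl-CoA carboxylase, fell there too (-0.37 ± 0.042, adjusted p = 4.9e-07). Over these lists the median log2 change in the double knockdown was -0.053 for the sterol genes and -0.044 for the fatty acid genes, beside -0.0061 for all tested genes.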

How the data were processed

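Total RNA was amplified, made into libraries and sequenced in pairs on an Illumina instrument, per the labels' protocols. Reads were handled with Trim Galore and cutadapt for trimming, FastQC, STAR and featureCounts on the rat build rn5, names taken from the submitters' processing notes. Versions, gene models and the strand setting of the counting are not given in those sources. Of the 2 tables the authors deposited, one holds raw counts by gene symbol and the other TPM, a unit that scales counts by gene length and library total. Amplified reads are not independent molecules.

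Groups came from the titles and treatment labels. The deposited counts of all 12 libraries were fitted with edgeR 4.0.16 in R 4.3.3 (filterByExpr, TMM, quasi-likelihood test, 1 mean per group), and p-values were adjusted over the 12535 genes tested with a threshold of 0.05. The 95% intervals were computed with 8 residual degrees of freedom per gene, whereas the edgeR test also draws on the spread of other genes. An interval can therefore be wider than its p-value implies. TPM served for levels and marker sums. Alternatives were DESeq2 1.42.0, other scalings and filters, a replicate block, limma 3.58.1 on log2(TPM + 1) and log2(TPM + 0.1), fits of the compared groups alone, and leaving out each library. On simulated counts for the double knockdown against scramble over 12535 genes, recovery was counted for genes with at least 1 CPM. There edgeR found 60 of the 60 genes given a 2-fold change, 41 of 48 given 1.5-fold and 48 of 72 given 1.2-fold. Of its 163 calls, 9 were false. The data gave far more calls, 2429 higher and 2444 lower, so the shares found do not carry over to the listed genes.

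Values in every library are given for genes called with an absolute log2 change of at least 0.25 in any of 6 comparisons, and for the 5 regulators. From each of the 2 lists of other pathway genes, up to 4 called genes with the smallest p in a comparison could be named. Genes and lists were chosen with earlier results of these data known. The genes Rai1, Wdr37, Mir33 and Scd2 are named for their overlap or likeness with listed genes. Promoter windows and gene overlaps are from RefSeq tables of GRCr8, which is not the build of the counts. Where a gene had several listed starts, the outermost was used. Listed genes with no promoter window here were Pmvk, Fdft1, Sqle, Stard4, Abcg1, Acaca, Fasn and Elovl6.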

Additional observations from a re-analysis of the deposited data

Results flagged for a closer look

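For 5 of the 33 genes the effect of an siRNA differed with the presence of the other siRNA, by the interaction test of edgeR. The departure was higher for 3.03% of the list and lower for 12.1%, shares close to the 4.99% and 10.1% of all tested genes. Elovl6 departed from the sum of the single knockdowns by -0.83 ± 0.092 on the log2 scale (adjusted p = 1.2e-06). It had 22.7, 23.8 and 21.2 CPM in the double knockdown, 28.5, 28.8 and 29.2 CPM in the Btg1 knockdown, 26.4, 26.5 and 29.6 CPM in the Btg2 knockdown and 20.4, 20.3 and 18.8 CPM in scramble. Stard4 departed by -0.37 ± 0.071 (adjusted p = 0.00082), and its double knockdown libraries, at 38.6, 38.7 and 38.1 CPM, were below all 6 single knockdown libraries. Abca1 departed by -0.32 ± 0.088 (adjusted p = 0.017), Hmgcs1 by -0.22 ± 0.072 (adjusted p = 0.044) and Mvk by 0.26 ± 0.085 (adjusted p = 0.042). Mvk fell in all 3 knockdowns, and its double knockdown fell by less than the sum. Hmgcs1 rose in all 3, and its double knockdown rose by less than the sum. The calls of Hmgcs1 and Mvk did not survive the removal of several single libraries. Without double knockdown replicate 3 the adjusted p was 0.097 for Hmgcs1 and 0.078 for Mvk. Without Btg2 knockdown replicates 1, 2 or 3 it was 0.075, 0.092 and 0.063 for Hmgcs1 and 0.092, 0.071 and 0.054 for Mvk. Without scramble replicate 2 it was 0.11 for Hmgcs1 and 0.078 for Mvk. Hmgcs1 was also lost without double knockdown replicate 1 (0.076), Btg1 knockdown replicates 2 or 3 (0.054 and 0.13) or scramble replicate 1 (0.13). Mvk was also lost without Btg1 knockdown replicates 1 or 2 (0.11 and 0.091) or scramble replicate 3 (0.12).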

How the results depend on the processing

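Over the alternatives, 3135 values were recomputed for single genes of the list. No change that was called in either setting turned its direction, while 91 changes called in neither did. In all, 2987 values stayed on the same side of the threshold, 112 lost and 36 gained a call. Calls that held in every alternative were 15 of 19 in the double knockdown against scramble, 13 of 18 in the Btg1 knockdown, 12 of 14 in the Btg2 knockdown, 4 of 10 in the double against the Btg1 knockdown, 14 of 22 in the double against the Btg2 knockdown and 2 of 5 for the departure from additivity. Without TMM scaling, 11 genes fell in the Btg2 knockdown in place of 7, and 3 departures from additivity were positive in place of 1. Over all tested genes that setting gave 1579 higher and 2248 lower in the Btg2 knockdown, against 2051 and 1709 with TMM. It also gave 2443 and 1758 against 1909 and 2130 in the double against the Btg2 knockdown, and 1004 and 1016 against 626 and 1264 departures. In the double against the Btg1 knockdown, 1 gene was higher in place of 2 without TMM, with the replicate block, with limma at either pseudocount and in the fit of these groups alone. Negative departures were 2 in place of 4 with limma at either pseudocount. The cause was not tested.

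Leaving out single libraries gave 12 to 15 genes higher and 3 to 5 lower in the double knockdown, 12 to 18 higher and 1 to 2 lower in the Btg1 knockdown, and 6 to 7 higher and 6 to 8 lower in the Btg2 knockdown. The ranges were 0 to 2 higher and 4 to 8 lower in the double against the Btg1 knockdown, 14 to 18 higher and 3 to 4 lower in the double against the Btg2 knockdown, and 0 to 1 positive and 2 to 5 negative departures. Same-numbered libraries of different groups did not deviate together, with correlations of -0.092 to 0.060 over 18 pairs, and 3 of 12 libraries correlated best with their own number, so the numbers were not treated as pairs. With the replicate block 15 genes were higher and 4 lower in the double knockdown, as without it. Residual spread came from 3 libraries a group, and the standard errors of Idi1 and Hsd17b7 were the largest of the list in each of the 6 comparisons.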
